A study of Rattus norvegicus with 5 samples.

Results

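The 4 opioid receptor genes and the 3 opioid peptide genes measured here were *Oprm1*, *Oprd1*, *Oprk1*, *Oprl1*, *Penk*, *Pdyn* and *Pnoc*, 7 of the 32883 genes counted in the series. They were chosen by name, and the values below describe them in nuclei of the ventral tegmental area (VTA). The VTA is the midbrain region whose dopamine neurons project to the nucleus accumbens and prefrontal cortex. The data were single-nucleus RNA sequencing (snRNA-seq) libraries of 5 adult male Sprague-Dawley rats, with the bilateral VTA punches of a rat combined into 1 sample. All 5 libraries belonged to 1 group, which the sample labels give as saline-treated and the study describes as drug-naïve, so no treatment was compared and every comparison below is between classes of nuclei within the same rats. Each captured transcript carried a unique molecular identifier (UMI), so the counts are of molecules, and a nucleus is a barcode with at least 1000 UMIs, more than 200 and fewer than 5000 genes and less than 5% mitochondrial UMIs.

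Opioid receptors couple to Gi/o proteins, which lower cyclic AMP, open G protein-gated potassium channels and reduce transmitter release. The μ receptor is encoded by *Oprm1*, the δ receptor by *Oprd1*, the κ receptor by *Oprk1* and the nociceptin receptor by *Oprl1*. *Penk* encodes proenkephalin, the precursor of enkephalins, which act at μ and δ receptors. *Pdyn* encodes prodynorphin, the precursor of dynorphins, which act at κ receptors, and *Pnoc* encodes the precursor of nociceptin. In the VTA, μ receptors are known for their action on GABA neurons, whose inhibition releases dopamine neurons, and κ receptors for their action on dopamine neurons themselves.

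The rule kept 22084 nuclei, with 1813, 9336, 2284, 4823 and 3828 in rats 1 to 5, from libraries of 10193355 to 88576210 UMIs. Median UMI totals per nucleus were 1829, 2849, 1605.5, 3526 and 3088 in rats 1 to 5, so rat 3 was the shallowest library. Clusters built without the 7 genes and named from marker genes gave 800 dopamine neurons (*Th*, *Slc6a3*), 1856 GABA neurons (*Gad1*, *Gad2*, *Slc32a1*) and 861 glutamate neurons (*Slc17a6*, *Slc17a7* or *Slc17a8*). A further 992 neurons are called unclassed. Of these, 786 carried markers of more than 1 of these classes, 156 were in sub-clusters with *Tph2*, the serotonin synthesis gene, among their leading genes, and 50 were in a sub-cluster whose GABA markers scored highest but which had the glutamate marker *Slc17a8* among its leading genes. The glial nuclei were 8572 oligodendrocytes, 702 oligodendrocyte precursor cells (OPCs), 720 astrocytes and 365 microglia. Rat 1 contributed 15 dopamine neurons, and the 2 microglia of rat 3 were too few to be used. Between 0 and 16 barcodes were shared by any pair of libraries.

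A level is the number of UMIs of a gene per 10000 UMIs of all genes, summed over the nuclei of a class in 1 rat. Levels are compared between classes for the same gene and not between genes. Free RNA from broken cells also enters droplets, and its contribution to a level was estimated from barcodes with fewer than 100 UMIs. Fold changes come from edgeR's quasi-likelihood test on the summed counts, with the rat as a block and Benjamini-Hochberg adjustment over all genes tested, at an adjusted p of 0.05. A level called n-fold higher below refers to this fitted fold. It can differ from the ratio of mean levels, which weight each rat equally. For *Penk* the fitted fold of GABA over dopamine neurons was 8.18, beside mean levels of 0.470 and 0.083.

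*Oprm1* (ENSRNOG00000018191) was low in dopamine neurons and several-fold higher in GABA and glutamate neurons, and its highest level was in microglia. In dopamine neurons of rats 1 to 5, its level was 0.294, 0.126, 0.0592, 0.229 and 0.328 UMIs per 10000. In GABA neurons it was 0.848, 1.98, 0.619, 2.01 and 1.74. In glutamate neurons it was 1.55, 0.426, 0.425, 1.55 and 2.09. The glutamate class held different sub-clusters in different rats, as described below, and the part of this in its levels was not tested. Every rat's GABA and glutamate levels lay above the highest dopamine level, whereas the GABA and glutamate levels overlapped, with glutamate neurons higher in rats 1 and 5. The level was 8.22-fold higher in GABA than in dopamine neurons (log2 fold change 3.04, SE 0.35, edgeR adjusted p = 2.02e-06). It was 5.57-fold higher in glutamate than in dopamine neurons (log2 fold change 2.48, SE 0.38, edgeR adjusted p = 7.86e-05). With each neuron typed by its own marker UMIs in place of its cluster, these fold changes were 1.89 and 1.47 on the log2 scale and still past the threshold. The difference between GABA and glutamate neurons did not pass the threshold (log2 fold change 0.56, SE 0.28, edgeR adjusted p = 0.454). It did with no filter on low counts (0.60, SE 0.15, edgeR adjusted p = 0.00275), where the spread was in effect shared over genes. It also did with nuclei thinned to 1000 UMIs (1.01, edgeR adjusted p = 0.0066). Leaving out 1 rat at a time gave log2 values from 0.01 to 0.79, not past the threshold. In dopamine neurons the level exceeded that expected from free RNA in 5 of 5 rats, with a mean of 0.207 ± 0.113 (SD, n = 5) against an expected 0.0523.

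The share of nuclei with an *Oprm1* UMI was also lower in dopamine neurons than in GABA and glutamate neurons. With each nucleus thinned to 1000 UMIs, the share was 13.1% ± 6.32 of GABA neurons, 10.7% ± 6.71 of glutamate neurons and 2.95% ± 2.38 of dopamine neurons (SD, n = 5 rats). In oligodendrocytes, where the mean *Oprm1* level was 0.0695 against 0.0653 expected from free RNA, it was 0.604% ± 0.266 (SD, n = 5). Without thinning, the shares were 36.2%, 39.2%, 12.9% and 2.44% in the same order, in nuclei with a median depth of 5279.5, 5336, 5855.5 and 2927 UMIs. The unthinned shares place glutamate above GABA neurons and the levels place them the other way, so no order was read between these classes.

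*Oprd1* (ENSRNOG00000010531) was nearly absent from dopamine neurons and present in GABA and glutamate neurons. Its level in dopamine neurons of rats 1 to 5 was 0, 0.018, 0.0296, 0.019 and 0.0252, from 11 UMIs in all. In GABA neurons it was 0.261, 0.369, 0.0898, 0.333 and 0.186. In glutamate neurons it was 0.595, 0.306, 0.324, 0.359 and 0.326. No dopamine level reached the lowest level of either other class, and the GABA and glutamate levels overlapped only through rats 2 and 4 of the GABA class. The glutamate levels of rats 2 and 3 included a sub-cluster led by *Pappa2* and *Slc17a7* that is described below. Outside it their glutamate levels were 0.152 and 0.102, within the GABA range. The part of this sub-cluster in the glutamate levels was not tested further. The fold change was 11.6 for GABA against dopamine neurons (log2 3.53, SE 0.40, edgeR adjusted p = 1.59e-06) and 14.6 for glutamate against dopamine neurons (log2 3.87, SE 0.41, edgeR adjusted p = 1.11e-06). They were smaller but past the threshold with neurons typed by their own markers (log2 1.69 and 2.25) and with no maximum of genes per nucleus (log2 2.93 and 3.28). Between GABA and glutamate neurons the difference did not pass the threshold (log2 fold change −0.34, SE 0.23, edgeR adjusted p = 0.687). After thinning, an *Oprd1* UMI was left in 3.04% ± 1.96 of GABA neurons, 3.99% ± 1.90 of glutamate neurons, 0.0649% ± 0.145 of dopamine neurons and 0.0333% ± 0.0586 of oligodendrocytes (SD, n = 5 rats).

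*Oprk1* (ENSRNOG00000007647) had the opposite arrangement, with its highest neuronal level in dopamine neurons. In dopamine neurons of rats 1 to 5 the level was 0.196, 0.305, 0.178, 0.219 and 0.218. It was 0.0435, 0.041, 0.0399, 0.0717 and 0.0559 in GABA neurons, and 0, 0.0576, 0.0404, 0.0804 and 0.0959 in glutamate neurons. Each dopamine level was above every GABA and glutamate level, where that of rat 1 rested on 2 UMIs in 15 nuclei, and the GABA and glutamate levels overlapped. The level was 4.89-fold higher in dopamine than in GABA neurons (log2 fold change −2.29 for GABA against dopamine, SE 0.27, edgeR adjusted p = 2.44e-06). It was 4.07-fold higher in dopamine than in glutamate neurons (log2 fold change −2.02 for glutamate against dopamine, SE 0.30, edgeR adjusted p = 6.46e-05). The difference between GABA and glutamate neurons was −0.27 on the log2 scale (SE 0.35, edgeR adjusted p = 0.914). An *Oprk1* UMI was left after thinning in 3.15% ± 2.39 of dopamine neurons, against 0.277% ± 0.240 of GABA neurons, 0.747% ± 0.619 of glutamate neurons and 0.0747% ± 0.0686 of oligodendrocytes (SD, n = 5 rats).

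*Oprl1* (ENSRNOG00000016768) did not separate the 3 neuron classes. Its level in rats 1 to 5 was 0, 0.0808, 0.0148, 0.124 and 0.143 in dopamine neurons, 0.217, 0.135, 0.0698, 0.118 and 0.142 in GABA neurons, and 0.198, 0.155, 0.0809, 0.118 and 0.134 in glutamate neurons. The ranges of all 3 classes overlapped, and the 0 in dopamine neurons of rat 1 rested on 15 nuclei. The log2 fold change was 0.39 for GABA against dopamine neurons (SE 0.29, edgeR adjusted p = 0.422), 0.44 for glutamate against dopamine neurons (SE 0.32, edgeR adjusted p = 0.438) and −0.05 for GABA against glutamate neurons (SE 0.27, edgeR adjusted p = 1).

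*Penk* (ENSRNOG00000008943) was the only gene of the 7 to differ between GABA and glutamate neurons in the fit reported here. Its level in GABA neurons of rats 1 to 5 was 0.413, 0.964, 0.339, 0.302 and 0.332. In dopamine neurons it was 0.196, 0.0763, 0.0296, 0.0286 and 0.084, and in glutamate neurons 0, 0.23, 0.0202, 0.105 and 0.0767. All GABA levels were above all dopamine and glutamate levels, and rat 2 had the highest GABA level. The level was 8.18-fold higher in GABA than in dopamine neurons (log2 fold change 3.03, SE 0.32, edgeR adjusted p = 6.43e-07) and 4.32-fold higher than in glutamate neurons (log2 fold change 2.11, SE 0.28, edgeR adjusted p = 5.21e-05). Against dopamine neurons the log2 fold change of GABA neurons was 1.88 with neurons typed by their own markers and 6.07 with free RNA subtracted, past the threshold in each. Subtraction set sums below the expected free RNA to 0, so the size of a fold after it is not read. Glutamate and dopamine neurons differed by 0.92 on the log2 scale (SE 0.41, edgeR adjusted p = 0.16), by 0.27 without rat 2 and by 2.91 with free RNA subtracted. The difference between GABA and glutamate neurons was not past the threshold without the replicate block (log2 2.18, edgeR adjusted p = 0.0741) or with each neuron typed by its own marker UMIs (log2 0.63, edgeR adjusted p = 0.399), and it was past it at 1.48 with no maximum of genes and at 3.16 with free RNA subtracted. *Penk* was abundant in free RNA, at 0.619 to 1.10 UMIs per 10000 in barcodes with fewer than 100 UMIs, and only in GABA neurons did its level exceed the expected share of free RNA in 5 of 5 rats. In dopamine neurons it did so in 1 of 5 rats, with a mean of 0.083 against an expected 0.106.

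*Pnoc* (ENSRNOG00000014231) was also raised in GABA and glutamate neurons relative to dopamine neurons. Its level in rats 1 to 5 was 0, 0.0494, 0, 0.0286 and 0.0336 in dopamine neurons. It was 0.478, 0.515, 0.12, 0.246 and 0.421 in GABA neurons, and 0.231, 0.629, 0.202, 0.136 and 0.115 in glutamate neurons. The dopamine levels did not reach those of the other classes, and rat 2 stood well above the other rats in glutamate neurons. The fold change was 11.4 for GABA against dopamine neurons (log2 3.51, SE 0.38, edgeR adjusted p = 9.72e-07) and 8.89 for glutamate against dopamine neurons (log2 3.15, SE 0.41, edgeR adjusted p = 1.39e-05). The 2 log2 values were 2.76 and 1.89 with neurons typed by their own markers and 6.96 and 6.48 with free RNA subtracted, past the threshold throughout. The sizes after subtraction are not read, since it set sums below the expected free RNA to 0. GABA and glutamate neurons differed by 0.36 on the log2 scale (SE 0.25, edgeR adjusted p = 0.705). In dopamine neurons the *Pnoc* level was above that expected from free RNA in 1 of 5 rats.

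*Pdyn* (ENSRNOG00000026036) was close to the limit of detection in every class, with 148 UMIs in 143 of the 22084 nuclei, and the filter on low counts removed it from every test. Dopamine neurons held 0 UMIs in 800 nuclei, which at 3 counts allows a share of nuclei with a *Pdyn* UMI of up to 0.375% and a level of up to 0.00572. This limit covers counting error only, and it does not bound the share of nuclei that express the gene. With no filter on low counts, *Pdyn* passed the threshold as higher in GABA (edgeR adjusted p = 0.00274) and in glutamate neurons (edgeR adjusted p = 0.0430) than in dopamine neurons, from 31 and 9 UMIs, and no fold is given against a class at 0. Of the 9 UMIs, 7 were in the glutamate sub-cluster led by *Ttc29* that is described below. These p-values rest on a spread in effect shared over genes. In GABA neurons of rats 1 to 5 the level was 0, 0.041, 0.01, 0.0102 and 0.0298, and in glutamate neurons it was 0.0331, 0.0266, 0.0202, 0.00619 and 0. Oligodendrocytes of every rat held *Pdyn* at levels from 0.00569 to 0.0319, a range that overlapped that of both neuron classes. These levels came from 28 UMIs in 8572 nuclei, where 0.00269 to 0.0153 was expected from free RNA. The level was above the expected one in 3 of 5 rats in oligodendrocytes, and in 4 of 5 rats in GABA and in glutamate neurons.

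**Figure D1:**
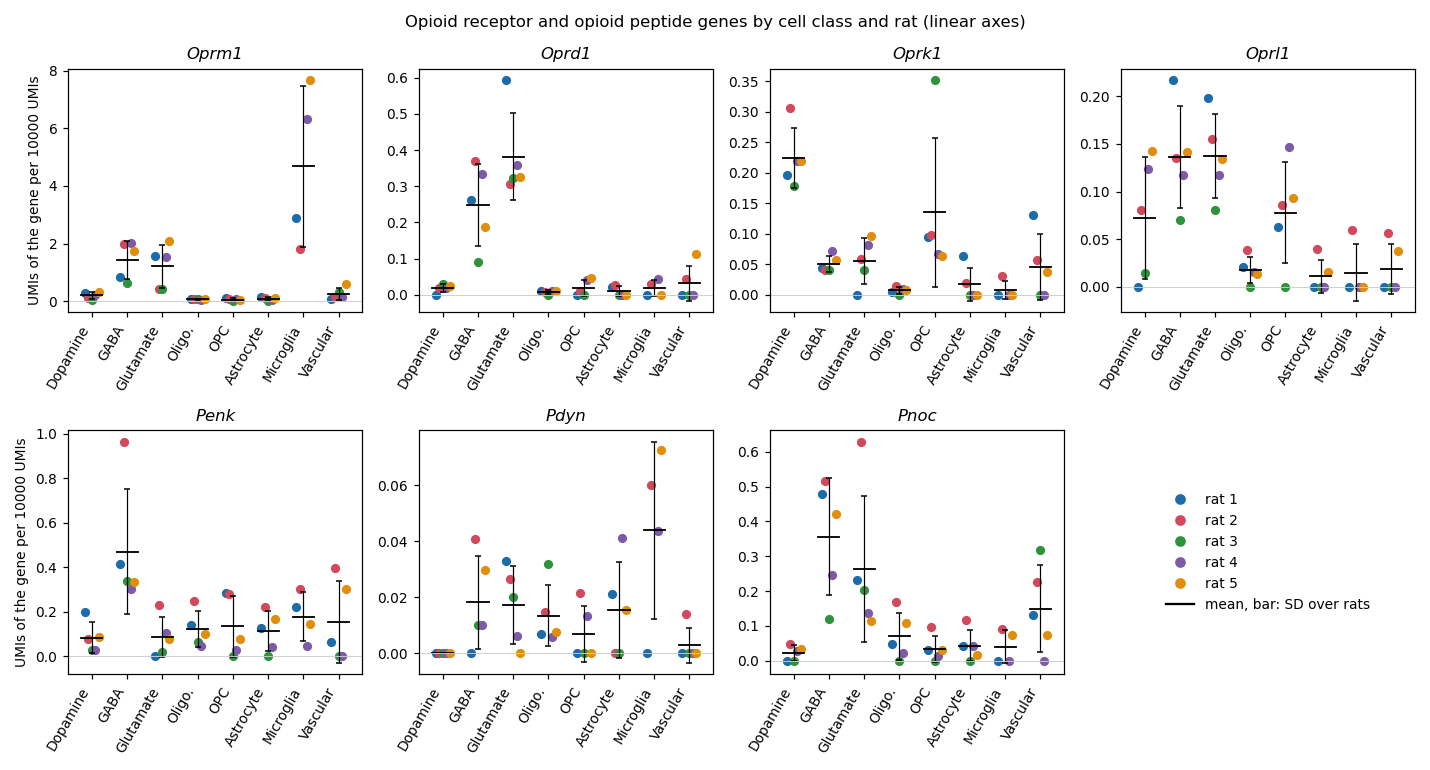
Level of each gene in UMIs per 10000 UMIs (linear vertical axis, a different scale for each gene) in 8 classes of nuclei. Each point is 1 rat, the horizontal line is the mean and the bar is the SD over rats. *Oprk1* is highest among neurons in the dopamine class (0.178 to 0.305), and *Oprm1*, *Oprd1*, *Penk* and *Pnoc* lie higher in GABA than in dopamine neurons in every rat.

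Of the 7 genes, 6 passed the filter on low counts in each comparison of neuron classes. Between GABA and dopamine neurons, 4 of the 6 were higher and 1 was lower in GABA neurons, where 19.6% of the 10352 genes tested differed, 9.54% higher and 10.1% lower. Between glutamate and dopamine neurons, 3 were higher and 1 was lower in glutamate neurons, where 15.9% of genes differed, 7.80% higher and 8.13% lower. These comparisons share the dopamine neurons of the same rats. Between GABA and glutamate neurons 1 gene, *Penk*, was higher in GABA neurons in the fit with the block, where 4.63% of genes differed, 2.39% higher and 2.24% lower. The median log2 fold change of all genes tested was between −0.01 and 0.01 in the 3 comparisons.

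**Figure D2:**
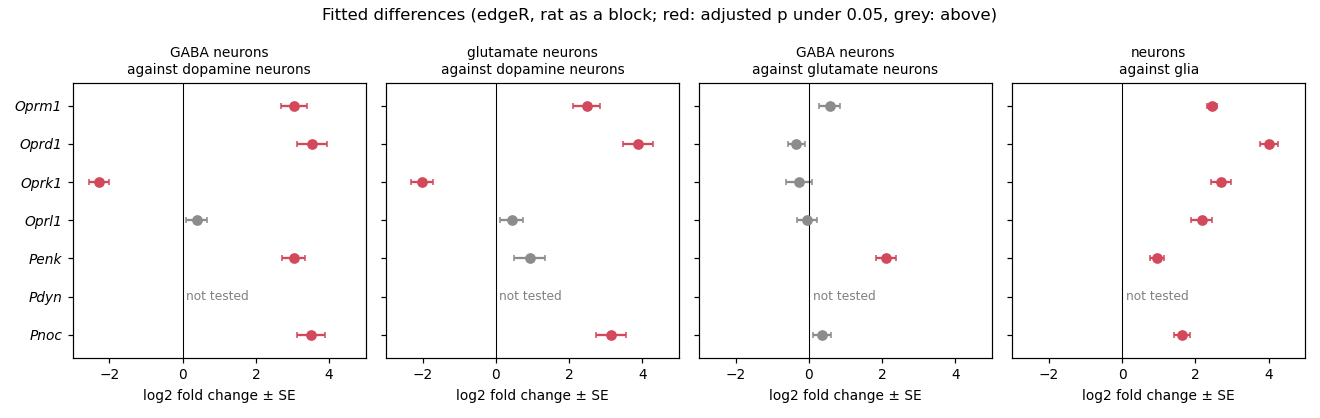
Fitted log2 fold change (horizontal axis) of each gene in 4 comparisons of summed counts from edgeR with the rat as a block. Points are estimates, bars are 1 SE, red marks an adjusted p under 0.05, and *Pdyn* was not tested. *Oprk1* is the only gene below 0 against dopamine neurons, at −2.29 in GABA and −2.02 in glutamate neurons.

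The same counts were summed over all neurons and over all glia of each rat. All 6 genes tested were higher in neurons, where 67.5% of 13676 genes differed, 33.0% higher and 34.5% lower. Most glial nuclei were oligodendrocytes (8572). Microglia alone had *Oprm1* at a mean of 4.68, above the neuronal mean of 0.918. The fold change was 5.51 for *Oprm1* (log2 2.46, SE 0.13, edgeR adjusted p = 4.94e-08), 16.2 for *Oprd1* (log2 4.02, SE 0.24, edgeR adjusted p = 1.22e-07) and 6.48 for *Oprk1* (log2 2.70, SE 0.28, edgeR adjusted p = 9.18e-06). It was 4.52 for *Oprl1*, 1.92 for *Penk* and 3.12 for *Pnoc*. With free RNA subtracted, the log2 fold change was 5.74 for *Oprd1*, 4.15 for *Oprl1*, 5.21 for *Penk* and 9.87 for *Pnoc*. Subtraction set sums below the expected free RNA to 0, so the size of these folds is not read. Without the replicate block *Penk* (log2 0.82, edgeR adjusted p = 0.195) and *Pnoc* (log2 1.44, edgeR adjusted p = 0.0569) did not pass the threshold. Glial levels of *Penk* were at about those expected from free RNA, with a mean of 0.12 ± 0.0806 in oligodendrocytes (SD, n = 5 rats) against an expected 0.131. Oligodendrocyte *Pnoc* was above the expected level in 0 of 5 rats. The rise over all neurons did not hold in each neuron class. Mean *Penk* was 0.0865 in glutamate and 0.083 in dopamine neurons, below each glial class (0.112 to 0.178). Mean *Pnoc* was 0.0223 in dopamine neurons, also below each glial class. Mean *Oprk1* was 0.135 in OPCs, above that of GABA (0.0504) and glutamate neurons (0.0549).

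OPCs held *Oprk1* above the level expected from free RNA in 5 of 5 rats. Its level in OPCs of rats 1 to 5 was 0.0947, 0.097, 0.352, 0.0666 and 0.0625, and in oligodendrocytes it was 0.00352, 0.0138, 0, 0.00853 and 0.00755. The 2 ranges did not overlap, and the highest value, in rat 3, was 1 UMI in 22 nuclei. *Oprl1* in OPCs was 0.0632, 0.0862, 0, 0.147 and 0.0937, against 0.0132 to 0.0386 in oligodendrocytes of the 4 rats where it was above 0, so the ranges overlapped through rat 3. With the filter on low counts, *Oprm1* and *Penk* alone were tested in OPCs and astrocytes, and 0 of them differed from oligodendrocytes in edgeR or DESeq2, where 49.6% of 9439 genes differed between OPCs and oligodendrocytes in edgeR (24.3% higher and 25.3% lower) and 51.1% between astrocytes and oligodendrocytes (24.5% higher and 26.7% lower). At an unadjusted p under 0.05 the count was also 0 in edgeR, with p from 0.193 to 0.97 over these fits. With no filter, 3 of the 7 genes differed between OPCs and oligodendrocytes, where 26.7% of 21911 genes differed, with log2 fold changes of 2.87 for *Oprk1* (edgeR adjusted p = 3.11e-06), 1.98 for *Oprl1* (edgeR adjusted p = 7.37e-05) and −1.21 for *Pnoc* (edgeR adjusted p = 0.0236). These p-values rest on a spread in effect shared over genes, not on a gene's own spread between rats. *Pnoc* averaged 0.0346 in OPCs against 0.0813 expected from free RNA, and 0.0698 in oligodendrocytes against 0.0826, and it was above the expected level in 0 of 5 rats in either class.

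Microglia had more *Oprm1* than any other class in mean level, a contrast that was examined after the levels had been seen and is given with no test. The level in rats 1, 2, 4 and 5 was 2.89, 1.80, 6.33 and 7.69, from 337 UMIs in 363 nuclei. In oligodendrocytes of rats 1 to 5 it was 0.0775, 0.094, 0.0638, 0.0408 and 0.0717. Every microglial level was above every oligodendrocyte level, and that of rat 2 lay within the range of GABA neurons. The fitted difference was 5.60 on the log2 scale (SE 0.28), and it ranged from 5.06 to 8.48 over the alternatives. The log2 ratio of the microglial to the oligodendrocyte level had an SD of 1.39 over the rats with microglia. The SE comes from the fit and does not describe this spread between rats. After thinning, 34.0% ± 14.3 of microglia (SD, n = 4 rats) and 0.604% of oligodendrocytes had an *Oprm1* UMI, in nuclei with a median depth of 1986 and 2927 UMIs.

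All 5 neuronal markers were lower in microglia than in each neuron class. *Syt1* was at 2.56 UMIs per 10000 in microglia, 27.8 in GABA neurons and 1.62 in oligodendrocytes, and *Snap25* at 2.99, 11.7 and 1.99. The microglial markers *Cx3cr1* and *C1qa* were at 8.40 and 7.38 in microglia, at 0.0141 and 0.0545 in GABA neurons and at 0.0105 and 0.086 in oligodendrocytes. The other receptor genes were low in microglia, with 2 UMIs of *Oprd1*, 1 of *Oprk1* and 2 of *Oprl1* in all. In the RefSeq annotation of GRCr8 the protein-coding gene *Ipcef1* overlaps *Oprm1*, and it was at 1.24 in microglia, 0.242 in GABA neurons, 0.314 in glutamate neurons, 0.0478 in dopamine neurons and 0.00501 in oligodendrocytes. Whether reads of *Ipcef1* were counted as *Oprm1* was not tested.

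**Figure D3:**
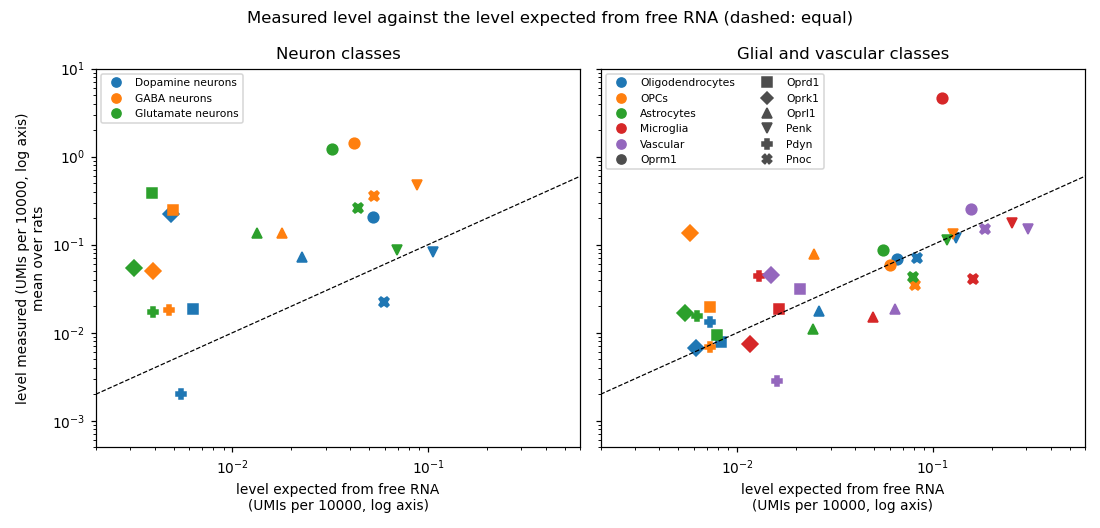
Measured level of each gene and class (vertical axis) against the level expected from free RNA (horizontal axis), both in UMIs per 10000 as means over rats on log axes, with a dashed line where they are equal and a measured 0 drawn at the lower end of the points. Color gives the class and shape the gene. Microglial *Oprm1*, at 4.68 against an expected 0.111, stands far above the line, whereas *Penk* in glia lies along it.

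Across the 9 classes 63 pairs of gene and class were measured, and 19 were above the expected free RNA in every rat. They were *Oprm1* in all neuron classes and microglia, *Oprk1* in dopamine, GABA and unclassed neurons and OPCs, *Oprd1*, *Oprl1* and *Pnoc* in GABA, glutamate and unclassed neurons, and *Penk* in GABA neurons. This criterion makes no allowance for counting error, and the free RNA profile of rat 3 held 1 UMI of *Oprd1*. The share of pairs above free RNA over all genes was not computed, so nothing is read from the count of 19.

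The promoters of the receptor and peptide genes were looked up in a set of 33469 RefSeq (GRCr8) promoters, in which 3 of the 7 genes were found. The others were missing from that set, not from the annotation. The 250 bases before the start are shown for *Oprm1* and *Oprd1*, which were low in dopamine neurons together, and for *Pdyn*, which was at the limit of detection. Capitals mark matches on either strand to a TATA box (TATAAA), a cyclic AMP response element (TGACGTCA), an AP-1 site (TGACTCA), an E-box (CACGTG) or a GC box (GGGCGG), and no match overlaps another. *Oprm1* has 2 starts in the table, and the start further downstream is shown (chr1:45585733-45585982, + strand). *Oprd1* is at chr5:149625000-149625249 on the − strand and *Pdyn* at chr3:137366504-137366753 on the − strand.
Oprm1: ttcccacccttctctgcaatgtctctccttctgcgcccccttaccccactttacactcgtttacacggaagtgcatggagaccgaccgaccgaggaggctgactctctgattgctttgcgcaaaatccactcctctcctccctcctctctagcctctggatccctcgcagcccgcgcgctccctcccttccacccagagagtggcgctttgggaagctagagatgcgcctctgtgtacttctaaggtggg
Oprd1: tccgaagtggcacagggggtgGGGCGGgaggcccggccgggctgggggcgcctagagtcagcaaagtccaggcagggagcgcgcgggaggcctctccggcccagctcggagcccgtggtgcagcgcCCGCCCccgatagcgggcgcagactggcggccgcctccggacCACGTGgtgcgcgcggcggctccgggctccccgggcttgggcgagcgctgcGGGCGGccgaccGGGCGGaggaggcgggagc
Pdyn: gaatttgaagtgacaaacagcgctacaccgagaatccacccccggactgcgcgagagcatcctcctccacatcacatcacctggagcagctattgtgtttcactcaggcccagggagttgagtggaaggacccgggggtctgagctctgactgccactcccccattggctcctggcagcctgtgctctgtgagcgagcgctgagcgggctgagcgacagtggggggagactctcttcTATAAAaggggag
The *Oprd1* window held 4 matches of the GC box GGGCGG, which 30.5% of 33469 promoters hold, and 1 of the E-box CACGTG, which 5.59% hold. The *Pdyn* window held 1 TATAAA, 13 bases before the start, which 12.9% of promoters hold. The *Oprm1* window held 0 matches. The cyclic AMP response element and the AP-1 site were in none of the 3 windows, and 1.59% and 4.05% of promoters hold them. GC content was 79.6% in the *Oprd1* window, 58.4% in that of *Oprm1* and 59.2% in that of *Pdyn*, against a median of 51.2%. The matches are letters in these windows and were not tied to any measured binding.

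Within the neuron classes the genes were unevenly spread. Neurons were clustered alone into 35 sub-clusters, again without the 7 genes, and the sub-clusters below were picked for their high levels, so their values are descriptions with no test. In GABA neurons, *Oprm1* was concentrated in 3 sub-clusters, led by *Nox4* and *Ppp1r1c*, by *Enpp3* and *Runx2*, and by *Reln* and *Pde1c*, leaving out the 7 genes themselves and genes named only by a clone identifier. These held 336 of the 1856 GABA nuclei, 18.1% of the class, and 57.8% of its *Oprm1* UMIs, 74.4% of its *Oprd1* UMIs and 73.0% of its *Penk* UMIs, against 18.0% of all its UMIs.

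The *Oprm1* level inside these sub-clusters was 5.14, 1.53, 6.05 and 8.91 in rats 2 to 5, and outside them it was 0.935, 0.527, 1.04 and 0.966. The inside level was higher in each of the 4 rats, and rat 3, the shallowest, had the lowest value on either side. *Oprd1* was at 1.26, 0.765, 1.24 and 0.999 inside and at 0.0738, 0.022, 0.114 and 0.099 outside. *Penk* was at 2.95, 2.19, 1.13 and 2.19 inside and at 0.303, 0.154, 0.102 and 0.132 outside. Rat 1 had 4 GABA nuclei inside and is not given. Rat 2 had 27.9% of its GABA nuclei inside, against 6.35% to 22.1% in the other rats, and the part of this share in the high *Penk* level of its GABA class was not tested.

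*Penk* did not follow *Oprm1* through all 3 of these sub-clusters. It was at 0.171 in the 183 nuclei led by *Nox4*, at 4.73 in the 90 led by *Enpp3* and at 5.49 in the 63 led by *Reln*, as levels over all rats. *Oprm1* was at 4.09, 6.28 and 8.59 in the same sub-clusters, and *Oprd1* was highest in the second, at 1.99. A sub-cluster of 50 unclassed neurons with *Rfx4* and *Glp1r*, the GLP-1 receptor gene, among its leading genes had *Penk* at 1.66, *Pnoc* at 1.42, *Oprm1* at 0.950 and *Oprk1* at 0.448.

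In glutamate neurons *Pnoc* was concentrated in a sub-cluster with little *Oprm1* or *Oprd1*. It was at 1.40 in a sub-cluster of 198 nuclei led by *Ttc29* and *Stk32a*, with *Pou4f2* and the glycine transporter gene *Slc6a5* among its leading genes, and at 0.123 in the rest of the class. That sub-cluster held 23.0% of glutamate nuclei, 72.2% of their *Pnoc* UMIs and 0.765% of their *Oprm1* UMIs, and 138 of its nuclei were from rat 2. *Pnoc* was at 1.47 inside and 0.147 outside it in rat 2, and at 1.27 and 0 in rat 3. In rat 2 *Oprm1* was at 0.0365 inside and 0.649 outside, *Oprd1* at 0.0243 and 0.468, and *Oprl1* at 0.158 and 0.154. In rat 3, with 49 nuclei inside, *Oprm1* was at 0 inside and 0.505 outside, *Oprd1* at 0 and 0.385, and *Oprl1* at 0.255 and 0.0481, the last from 2 UMIs on each side. *Oprd1* was at 1.02 in 102 nuclei led by *Pappa2* and *Slc17a7*, all from rats 2 and 3, and at 0.268 in the rest. Within rat 2 it was at 0.980 in them and 0.152 in the rest, and within rat 3 at 1.16 and 0.102. *Oprm1* was at 0.0767 in these 102 nuclei and at 1.11 in the rest.

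In dopamine neurons *Oprk1* varied less. It was at 0.318 in 186 nuclei led by *Bmp5* and *Col24a1*, at 0.323 in 73 nuclei led by *Vip* and *Col24a1*, and at 0.215 in the other dopamine neurons. These 2 sub-clusters had the higher level in rats 2 and 4 and the lower level in rats 3 and 5, so the difference did not hold across rats. A sub-cluster of 211 nuclei led by *Col14a1* and *Ednra*, whose dopamine markers were highest but which also carried glutamate markers and was left unclassed, had *Oprk1* at 0.398.

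**Figure D4:**
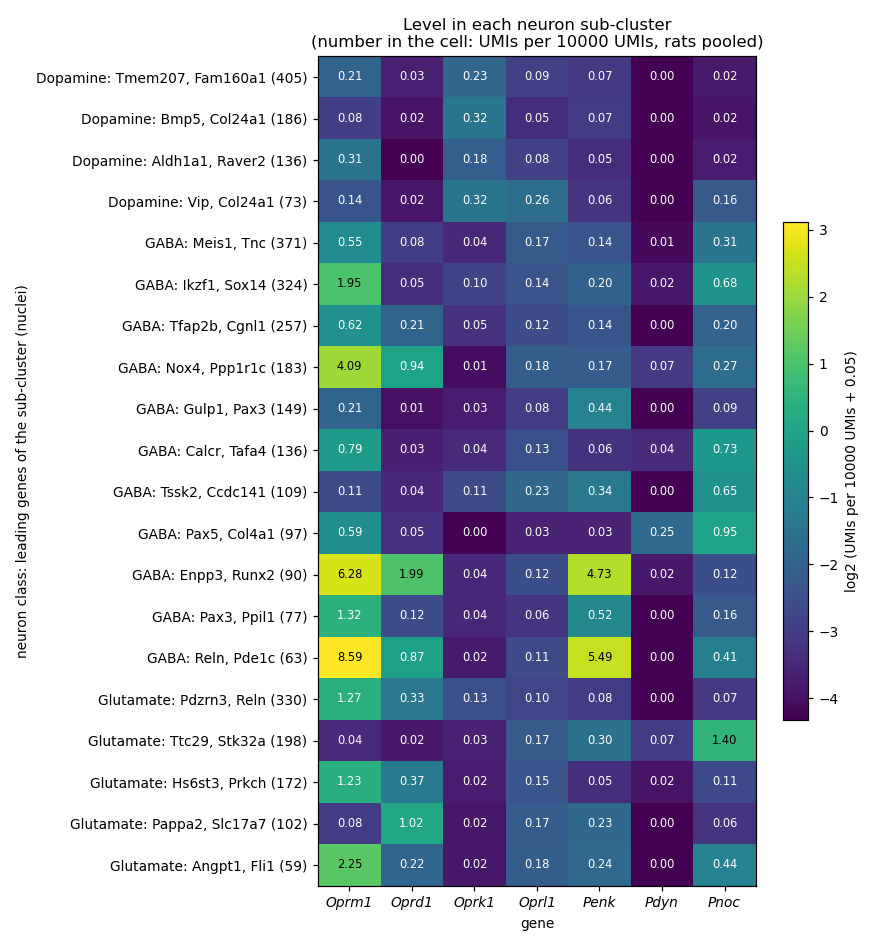
Level of each gene (columns) in each sub-cluster of the 3 named neuron classes (rows, with their 2 leading genes and number of nuclei), with rats pooled. The number in a cell is UMIs per 10000 and the color is its log2 after adding 0.05. The rows led by *Nox4*, *Enpp3* and *Reln* hold the high *Oprm1* values of 4.09, 6.28 and 8.59.

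A receptor and a peptide that acts on it were next counted in the same nucleus. In GABA neurons, 127 nuclei had a UMI of *Oprm1* and of *Penk*, against 90.3 expected from their separate shares within rats and strata of UMI total, and the number was above the expected one in 5 of 5 rats. *Oprd1* and *Penk* were found together in 59 GABA nuclei, against 30.2 expected, above it in 4 of 5 rats. Of GABA nuclei with *Penk*, 58.8% had *Oprm1* and 27.3% had *Oprd1*. The ratios of observed to expected numbers were 1.41 and 1.95 in GABA neurons. Within the 3 sub-clusters described above they were 1.01 and 1.05, and in the other GABA neurons 1.15 and 1.22. Those sub-clusters were picked for *Oprm1*, which 245 of their 336 nuclei had, and this limits how high its ratio inside could be. In glutamate neurons *Oprm1* and *Penk* were together in 10 nuclei, against 14.4 expected, and the number was above the expected one in 1 of 5 rats. *Oprd1* and *Penk* were together in 9 glutamate nuclei against 7.77 expected. In dopamine neurons 2 nuclei had *Oprm1* and *Penk*, against 2.91 expected, and 1 had *Oprd1* and *Penk*, against 0.348 expected. *Oprk1* and *Pdyn* were found together in 0 nuclei of the 3 classes, where 1.19 were expected in GABA neurons, which is too few to read. *Oprl1* and *Pnoc* were together in 35 GABA nuclei against 28.9 expected and in 14 glutamate nuclei against 11.1 expected, and after thinning in 0 nuclei of either class, where 0.807 and 0.516 were expected. These are counts of nuclei that share libraries and were not tested.

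Other genes of opioid signaling were compared in the same fits. The list held 45 genes, among them Gi/o subunits, G protein-gated potassium channels, receptor kinases, regulators of G protein signaling (RGS) and enzymes that make or break down the peptides, and 33 were tested between neuron classes. These genes, unlike the 7, were not kept out of the clustering. Of the 33, 5 were higher and 10 lower in GABA than in dopamine neurons, where 9.54% of all genes tested were higher and 10.1% lower, and their median log2 fold change was −0.04, against 0.01 for all genes. In glutamate against dopamine neurons 6 were higher and 4 lower, where 7.80% of all genes were higher and 8.13% lower. In GABA against glutamate neurons 3 were lower, where 2.24% of all genes were lower.

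*Mme*, which encodes neprilysin, an enzyme that degrades enkephalins, was the gene of this list with the largest rise in both comparisons with dopamine neurons. Its level averaged 0.0824 in dopamine, 0.476 in GABA and 0.517 in glutamate neurons, with log2 fold changes of 3.89 (SE 0.39, edgeR adjusted p = 3.62e-07) and 4.01 (SE 0.41, edgeR adjusted p = 6.41e-07) against dopamine neurons. These are fitted folds of 14.8 and 16.1, larger than the ratios of the averaged levels, which weight each rat equally, and the cause of the gap was not tested. Of the 4 G protein-gated potassium channel subunit genes 3 were tested, of which 1 was higher and 1 lower than in dopamine neurons in both comparisons. *Kcnj3* averaged 1.12 in dopamine, 4.15 in GABA and 5.07 in glutamate neurons, with log2 fold changes of 1.83 and 2.08 (SE 0.14 for each, edgeR adjusted p = 6.74e-09 and 3.11e-09). *Kcnj6* averaged 2.47, 0.472 and 0.868 in the same classes, with log2 fold changes of −2.57 and −1.69 (SE 0.19 for each, edgeR adjusted p = 6.74e-09 and 2.39e-06). *Kcnj9* did not pass the threshold (log2 0.64 and 0.50, edgeR adjusted p = 0.0811 and 0.279). *Gnai1*, a Gi alpha subunit, was also lower, by log2 fold changes of −1.27 and −1.38 (SE 0.21 and 0.23, edgeR adjusted p = 1.18e-04 and 1.68e-04).

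Of the regulators of G protein signaling, 7 of 11 were tested, and 2 were higher and 4 lower in GABA than in dopamine neurons, beside the 9.54% and 10.1% of all genes. These small lists are given as counts, and nothing is read from them about the lists. *Rgs20* was lower in GABA than in glutamate neurons (0.0856 against 0.271, log2 fold change −1.47, SE 0.28, edgeR adjusted p = 0.00248), as was *Kcnj6* (log2 −0.88, SE 0.21, edgeR adjusted p = 0.0147). Of the 8 genes of peptide breakdown 6 were tested, and *Mme* and *Ace*, the angiotensin-converting enzyme gene, were higher in GABA neurons. Of the 7 genes of peptide processing 5 were tested, of which *Pcsk2*, a prohormone convertase gene, and *Furin* were lower in GABA than in dopamine neurons (log2 −0.47 and −0.78, edgeR adjusted p = 0.0154 and 0.00545). Between neurons and glia, 21 of 38 genes tested were higher and 8 lower in neurons, where 33.0% of all genes were higher and 34.5% lower. *Kcnj6* and *Mme* had the largest rises (log2 4.47 and 4.45, edgeR adjusted p = 1.16e-09 and 2.06e-08), and *Rgs20* and *Kcnj9* the largest falls (log2 −2.27 and −1.71, edgeR adjusted p = 4.62e-06 and 2.49e-06).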

How the data were processed

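Libraries were prepared with the 10x Genomics 3′ assay (v3.1). The authors deposited unfiltered UMI counts for every barcode, before their correction for cell-free mRNA, integration and doublet removal. Per the labels the counts came from Cell Ranger 8.0.1, whereas the matrix headers name version 4. The genome build is not given in the sources used here. The 7 genes and the other gene lists were chosen with earlier results of these data known.

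Counts were read in Python 3.11.15 (scanpy 1.11.5, scipy 1.17.1). The 1.43% to 7.47% of nuclei per library with the highest Scrublet scores, 1068 in all, were left out as doublets, since its own threshold called 9. Libraries were integrated in Seurat 5.3.0 (2000 variable genes, 30 components, resolution 1.5) without the 7 genes and mitochondrial genes, for clustering only. A cluster took the class with the highest marker score and needed 3 markers, a second score under 0.4 of the first and a correlation with the free RNA profile under 0.85. A neuronal sub-cluster was unclassed where its second class score exceeded 0.5 of the first, where *Tph2* or *Slc6a4* was among its 10 leading genes, or where these held more markers of another class than of its own, and mixed where those markers were glial or vascular. These limits were set after the clusters had been seen. In all 4084 nuclei resembled free RNA, 1640 had mixed markers and 424 vascular nuclei were used only in levels.

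UMIs were summed per rat and class with at least 10 nuclei and tested with edgeR 4.0.16 (TMM, filterByExpr, quasi-likelihood) in R 4.3.3, with DESeq2 1.42.0 as an alternative. Fits of neuron classes used 15 sums. Classes of 1 rat come from the same animal, hence the block, and deviations of same-rat sums from class means correlated at 0.278 to 0.826 across genes. The SE of a log2 fold change was taken from the test's F. With no filter on low counts, p-values in the fits of neuron classes and of glial classes matched a normal distribution. The spread was then in effect shared over genes, and a gene's own spread between rats was not used. On simulated data for GABA against dopamine neurons (10023 genes), 98% of 2-fold and 100% of 4-fold changes were recovered, with 13 false calls. The simulated rats shared the same means, and the genes with the lowest means were not among those changed. These numbers therefore do not cover differences between rats, and the recovery does not cover such genes. Nuclei were not treated as replicates. Counting limits and intervals cover counting error only, and thinning drew 1000 UMIs per nucleus. The genes named are the 7 genes, and from the lists the 2 largest changes past the threshold in each direction. *Ace*, *Pcsk2* and *Furin* were named after their values were seen.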

Additional observations from a re-analysis of the deposited data

Results flagged for a closer look

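Dixon's criterion was applied to 40 levels with enough UMIs, each in 5 rats except *Oprm1* in microglia, which was in 4 rats. Of these levels, 5 had a rat apart from the others, which chance gives in about 1 of 20 groups. *Oprd1* in glutamate neurons was highest in rat 1, at 0.595 UMIs per 10000, where the next rat was at 0.359. *Oprk1* in OPCs was highest in rat 3, at 0.352 from a single UMI, where the next was at 0.097. *Oprl1* in unclassed neurons was highest in rat 1, at 0.385, where the next was at 0.142. *Penk* in GABA neurons was highest in rat 2, at 0.964, where the next was at 0.413. *Pnoc* in glutamate neurons was highest in rat 2, at 0.629, where the next was at 0.231.

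Nuclei outside the classes also held *Oprm1*. A cluster led by microglial genes, among them *Ptprc* and *Csf1r*, scored highest for oligodendrocyte markers and next for microglial markers and was left out as mixed. It had a median of 1.21 over the 5 rats, with 1.21, 1.06, 0.528, 2.18 and 3.91 in rats 1 to 5, all above the oligodendrocyte range. A sub-cluster of 108 neurons with the astrocyte marker *Gfap* among its leading genes had *Oprm1* at 1.93 and *Penk* at 1.58. A sub-cluster of 83 neurons with the vascular marker *Dcn* among its leading genes had *Oprm1* at 2.17. Both had their highest neuronal score for GABA markers and were left out of the classes. So were larger sub-clusters of 150 and 143 neurons that also scored highest for GABA markers, with the OPC marker *Sox6* among their leading genes. *Oprm1* was low in these, at 0.234 and 0.0341. Among nuclei with at least 5000 genes, which the rule removes, *Oprm1* was at 0.992 in those nearest to GABA neurons and *Oprk1* at 0.248 in those nearest to dopamine neurons.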

How the results depend on the processing

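Each result was recomputed with other normalization, filters, thresholds and class borders, without each rat and without the replicate block. Of 423 alternative fold changes of the 6 genes with a reported fold change, 395 kept their direction and side of the threshold, 6 passed it and 4 no longer did. The other 18, in 5 results that did not pass the threshold in either fit (*Oprk1* and *Oprl1* between GABA and glutamate neurons, *Oprm1* and *Penk* between OPCs and oligodendrocytes, and *Penk* between astrocytes and oligodendrocytes), turned sign. Calls with no filter of genes that the filter had removed are not in these numbers. In GABA and in glutamate against dopamine neurons, thinning to 1000 UMIs left 1 gene, *Oprm1*, past the filter on low counts, and it passed the threshold, whereas the other genes were not tested. The replicate block changed no call in these comparisons. GABA against glutamate neurons gave 2 genes with no filter on low counts, 0 with no replicate block and 0 with neurons typed by their own markers. OPCs against oligodendrocytes gave 3 with no filter. For *Penk* in glutamate against dopamine neurons the threshold was passed with no maximum of genes (log2 1.54), without rat 1 (1.11), with own markers (1.25) and with a score ratio of 0.6 and the unclassed sub-cluster led by *Rfx4* counted as GABA neurons, added after the data were seen (1.38), and the value was 0.27 without rat 2. In GABA neurons the ratio after thinning without strata was 2.27 for *Oprm1* with *Penk* and 3.48 for *Oprd1* with *Penk*, the latter from 10 nuclei. The cause was not tested. Genes past the threshold were 2029, 1649, 479 and 9237 in the 4 neuron comparisons, and 781, 638, 97 and 5797 without the block. With no maximum of genes they were 3571, 2870, 783 and 10591, of which 37.5% were higher in neurons than in glia, against 48.9% (the median log2 of all genes fell to −0.25), and after thinning 914, 721, 278 and 5823. For GABA against glutamate neurons they were 865 with no filter, 245 with own markers, and 734, 279 and 317 without rats 1, 4 and 5. OPC and astrocyte comparisons fell from 4682 and 4827 to 2676 and 2634 after thinning. Subtracting free RNA moved 21 of 63 levels by more than the SD over rats, and thinning moved 23 of 63 shares. DESeq2's size factors moved the median log2 of microglia against oligodendrocytes from −0.09 to 0.09, with *Oprm1* at 5.79. Rat 3 had the fewest UMIs per nucleus, and the dopamine levels of rat 1 came from 15 nuclei.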

Other observations

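The genes whose levels resembled each of the 7 most were found over 44 sums of class and rat, as Pearson correlations of log2(CPM + 1). They are descriptions, since the sums share libraries, classes and depth. *Oprm1* was most like *Ankrd55* (r = 0.90), *Ipcef1* (r = 0.88), which overlaps it, and *Rgs10* (r = 0.82), a regulator of G protein signaling. *Oprd1* was most like *Cacna1i* (r = 0.89), a T-type calcium channel gene, *Spag6l* (r = 0.86) and *Xkr7* (r = 0.85). *Oprk1* was most like *Samd14* (r = 0.80), *Slc44a5* (r = 0.79) and AABR07033234.2 (r = 0.78). *Oprl1* was most like *Fam78b* (r = 0.90), *Chrd* (r = 0.87) and *Kif27* (r = 0.85).

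Of the peptide genes, *Penk* was most like *Gad1* (r = 0.75), the GABA synthesis gene that also named the classes, *Asnsd1* (r = 0.74) and *Morn4* (r = 0.74). *Pnoc* was most like *Trpc7* (r = 0.76), *Mtus2* (r = 0.73) and *Grm4* (r = 0.72), a metabotropic glutamate receptor gene. The values for *Pdyn*, with 83 UMIs over these sums, were 0.64 or lower.

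The unclassed neurons had mean levels between those of the named classes for *Oprm1*, *Oprd1* and *Oprk1*. *Oprk1* in them was 0.0964, 0.228, 0.0398, 0.209 and 0.125 in rats 1 to 5, and *Oprm1* averaged 0.482 ± 0.214 (SD, n = 5 rats). A sub-cluster of 226 unclassed neurons with *Npas1* among its leading genes had *Oprm1* at 0.887 and *Oprd1* at 0.231.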
